A study of Homo sapiens with 10 samples.

Results

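The cluster of miR-221 and miR-222 was followed through 4 mature miRNAs, hsa-miR-221-3p, hsa-miR-221-5p, hsa-miR-222-3p and hsa-miR-222-5p, chosen by name as the 2 arms of each of its 2 hairpins. They are 4 of the 2576 mature miRNAs in the small RNA table, and 1196 of those were seen with at least 1 read. Each of the 4 had 1 row, and all 4 passed the filter on low values. The libraries were made from ES-2, an established ovarian cancer cell line, after transfection with an siRNA pool against IGF2BP1 (siIGF2BP1, 2 libraries), against IGF2BP2 (siIGF2BP2, 3 libraries) or against IGF2BP3 (siIGF2BP3, 3 libraries), or with control siRNA (siC, 2 libraries). The IGF2BP genes encode related RNA-binding proteins that associate with mRNAs. The series title concerns IGF2BP1 and repression by miRNAs, and the comparisons below ask whether the arms of miR-221 and miR-222 themselves differed after each knockdown. The labels used here give neither the siRNA dose nor the time after transfection. The table holds mature miRNAs, so the depletion of the IGF2BP mRNAs was not measured here.

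miRNAs are cut from hairpin precursors, and either strand of the hairpin stem, the 5p or the 3p arm, can be loaded into an Argonaute protein. The loaded strand finds mRNAs mainly through its seed, the bases near its 5′ end. miR-221 and miR-222 lie side by side on the X chromosome, are transcribed together, and their 3p arms are the strands usually loaded. Both 3p arms are known for repressing CDKN1B (p27) and CDKN1C (p57), inhibitors of cyclin-dependent kinases, and are abundant in many tumour cell lines.

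Mature sequences were found in RefSeq (GRCh38.p14) for 3 of the 4 members, all but miR-221-5p. They are shown because the seed, bases 2 to 8, is what the 3p arms share; it is in capitals.
miR-221-3p: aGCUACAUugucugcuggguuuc
miR-222-3p: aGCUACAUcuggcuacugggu
miR-222-5p: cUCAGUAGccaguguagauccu
miR-221-3p and miR-222-3p were identical over their first 8 bases and differed at 10 of 21 positions when aligned from the 5′ end without gaps. Of 2370 mature miRNA names in the RefSeq table, 2 carried the seed GCUACAU, and these were the 2 arms themselves. The seed of miR-222-5p was carried by 1 name, its own. The precursors are shown with the mature arms listed by RefSeq in capitals, since the balance between arms is examined below.
MIR221: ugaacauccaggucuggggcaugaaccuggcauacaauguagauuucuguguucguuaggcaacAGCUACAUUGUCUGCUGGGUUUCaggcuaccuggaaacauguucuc
MIR222: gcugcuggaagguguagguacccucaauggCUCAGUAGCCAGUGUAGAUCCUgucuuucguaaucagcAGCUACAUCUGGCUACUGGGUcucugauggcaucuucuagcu
MIR221 lies at chrX:45746157-45746266 and MIR222 at chrX:45747015-45747124, both on the minus strand of GRCh38, with 748 bases between them. Both lie inside the long non-coding RNA gene MIR222HG (chrX:45745211-45770274, minus strand) and overlap none of its annotated exons, so both are intronic. The submitters' notes name hg19, and the table itself holds no coordinates.

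The 10 libraries held 462724 to 1269743 reads summed over all mature miRNAs, recovered as whole numbers from the authors' normalised values. Shares of a library's reads below are of these miRNA totals. The libraries fell into a pair of blocks that follow the labels, since siIGF2BP1 and siC are labelled with one source name, and siIGF2BP2 and siIGF2BP3 with another. A principal component analysis of 313 miRNAs split the libraries along the same line on its first axis, which held 77.1% of the variance. Block and group therefore cannot be told apart in siIGF2BP2 against siC, in siIGF2BP3 against siC, or in siIGF2BP1 against either of the others. The comparisons within a block are siIGF2BP1 against siC and siIGF2BP3 against siIGF2BP2. Epithelial miRNAs, mostly the miR-200 family, took 0 to 0.00121% of the reads in every library, so these defining epithelial markers were at or near 0 in a line labelled as derived from an ovarian cancer. The endothelial pair miR-126-3p and miR-126-5p took 0.00803% to 0.0156% in siIGF2BP1 and 0.0101% to 0.0163% in siC, and at most 0.00182% in siIGF2BP2 and siIGF2BP3. The 7 blood miRNAs took 0.0439% to 0.163%, highest in siIGF2BP3 replicate 3, where miR-142-5p had 1104 reads and miR-142-3p 146, against 274 to 521 and 17 to 28 in the other libraries. The erythroid miR-451a instead followed the blocks and varied within them, with 9 and 242 reads in siIGF2BP1, 0 to 2 in each siIGF2BP2 and siIGF2BP3 library, and 41 and 496 in siC. The erythroid miR-144-3p had 3 and 21 reads in siIGF2BP1, 0 in every siIGF2BP2 and siIGF2BP3 library, and 7 and 47 in siC. Of the other blood miRNAs, miR-223-3p had 0 to 2 reads per library, miR-150-5p 0 to 6, and miR-486-5p 0 in every library. The 6 fibroblast and smooth muscle miRNAs took 0.340% to 0.524%, mostly as miR-199a-3p, at 1381 to 3540 reads. Among them miR-143-3p had 721 and 1756 reads in siIGF2BP1, 2 to 7 in each siIGF2BP2 and siIGF2BP3 library, and 660 and 1018 in siC. miR-199a-5p had 183 to 621 reads and miR-199b-5p 20 to 107, while miR-145-5p had 0 to 21 and miR-214-3p 0 in every library. The part of these differences in the results below was not tested.

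The 3p arms were among the most abundant miRNAs of these cells. Values are the authors' normalised read counts unless a percentage is given. miR-222-3p had 48934 and 47897 in the siIGF2BP1 libraries, 46698, 46013 and 44526 in siIGF2BP2, 71233, 71462 and 62580 in siIGF2BP3, and 48465 and 46322 in siC. The 3 siIGF2BP3 libraries stood above the other 7, which lay close together. By rank, miR-222-3p was the 3rd most abundant miRNA in each siIGF2BP3 library and 5th to 8th in the others. As a share of reads it took 6.84% to 7.71% in siIGF2BP3 and 4.74% to 5.31% in siC. For the nearest pair of these, siIGF2BP3 replicate 3 and siC C2, the exact 95% Clopper-Pearson intervals were 6.79% to 6.90% and 5.25% to 5.37%, which cover counting error only.

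miR-221-3p had 29372 and 30595 in siIGF2BP1, 40861, 36133 and 46660 in siIGF2BP2, 49099, 49702 and 39357 in siIGF2BP3, and 35581 and 37835 in siC. Both siIGF2BP1 libraries were below every other library, while siIGF2BP2 and siIGF2BP3 overlapped each other. Its rank ran from 5th to 11th. Its mean was 29984 ± 865 in siIGF2BP1 (SD, n = 2), 41218 ± 5273 in siIGF2BP2 (SD, n = 3), 46053 ± 5807 in siIGF2BP3 (SD, n = 3) and 36708 ± 1594 in siC (SD, n = 2).

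The 5p arms, usually the discarded strands, were far lower. miR-221-5p had 1097 and 710 in siIGF2BP1, 1396, 1134 and 1195 in siIGF2BP2, 1654, 1535 and 1994 in siIGF2BP3, and 1381 and 1492 in siC. The siIGF2BP3 libraries were again the highest and the siIGF2BP1 libraries the lowest, and siIGF2BP2 overlapped siC. miR-222-5p had 249 and 202 in siIGF2BP1, 221, 218 and 235 in siIGF2BP2, 297, 266 and 398 in siIGF2BP3, and 112 and 164 in siC. Every knockdown library was above both siC libraries, in which the arm rested on 68 and 123 reads. Of the knockdown libraries, those of siIGF2BP2 and siIGF2BP3 belong to the other block than siC. How many of all miRNAs separate the libraries as these arms do was not counted. Within siIGF2BP3, replicate 3 had the highest value of both 5p arms and the lowest of both 3p arms.

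**Figure D1:**
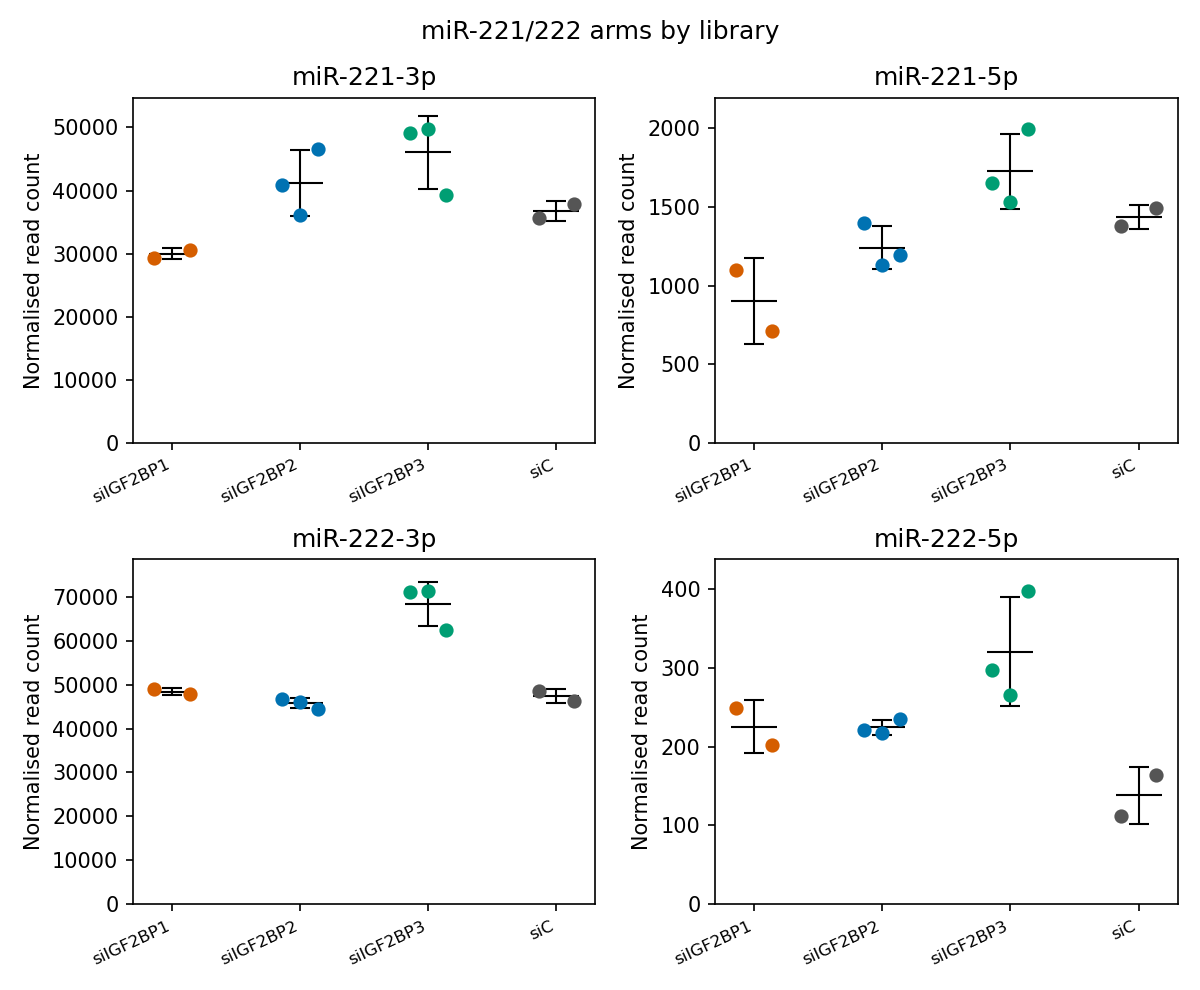
Normalised read count (y axis, from 0) of each of the 4 arms in each library (points, by group on the x axis), with group mean and SD as black bars. miR-222-3p sits at 62580 to 71462 in siIGF2BP3 and at 44526 to 48934 in the other groups, and miR-222-5p is above the siC values of 112 and 164 in all knockdown libraries. How many of all miRNAs separate the libraries in these ways was not counted.

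The order of the 4 levels was miR-222-3p, miR-221-3p, miR-221-5p and miR-222-5p in 9 of the 10 libraries. In siIGF2BP2 replicate 3 the 3p arms changed places, at 44526 for miR-222-3p and 46660 for miR-221-3p. Together the 4 arms took 8.01% ± 0.290 of the reads in siIGF2BP1 (SD, n = 2), 9.22% ± 0.504 in siIGF2BP2 (SD, n = 3), 12.5% ± 0.950 in siIGF2BP3 (SD, n = 3) and 9.08% ± 0.413 in siC (SD, n = 2). The siIGF2BP3 libraries, at 11.4% to 13.2%, overlapped neither siIGF2BP2, at 8.83% to 9.79%, nor siC, at 8.79% to 9.37%. By two-sided exact permutation tests over libraries the p-value of the share was 0.1 for siIGF2BP3 against siIGF2BP2, 0.2 for siIGF2BP3 against siC, 0.8 for siIGF2BP2 against siC and 0.333 for siIGF2BP1 against siC. With 3 against 3 libraries such a test cannot go below 0.1, with 3 against 2 not below 0.2, and with 2 against 2 not below 0.333, so none could reach 0.05. After adjustment over the 12 exact tests of this family, all lay between 0.4 and 0.8.

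Differences in level were tested with limma on log2(normalised read count + 1), and a miRNA is called where its p, adjusted over the 889 miRNAs that passed the filter, is under 0.05. In siIGF2BP3 against siIGF2BP2, the comparison within a block, miR-222-3p was higher and the other 3 arms did not pass the test. miR-222-3p averaged 68425 ± 5063 in siIGF2BP3 and 45746 ± 1110 in siIGF2BP2 (SD, n = 3 each), 1.50 times as high, with a log2 fold change of 0.58 ± 0.07 (SE) and an adjusted p of 0.000644 (limma, over 889 miRNAs). All 3 siIGF2BP3 libraries were above all 3 siIGF2BP2 libraries, as they were for miR-221-5p and miR-222-5p. This separation was not counted over all miRNAs. Among all 889 miRNAs tested, 3.15% were called in this comparison, 1.46% as higher and 1.69% as lower. The log2 fold changes of miR-221-5p and miR-222-5p were 0.47 (adjusted p = 0.158) and 0.49 (adjusted p = 0.224), and their 95% intervals, which are not adjusted for the number of miRNAs, were 0.13 to 0.82 and 0.09 to 0.90. The value of miR-221-3p was 0.16, with an interval of -0.08 to 0.40 (adjusted p = 0.584). The call of miR-222-3p was kept in all 13 alternative settings and whichever of the 6 libraries was left out. The labels do not state whether replicate libraries derive from separate cultures, and these p-values therefore measure only the spread between libraries, which may be technical. In these bulk samples, fewer cells with a miRNA and less of it per cell cannot be told apart.

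In siIGF2BP3 against siC, both arms of miR-222 were higher. miR-222-3p, at 68425 ± 5063 in siIGF2BP3 (SD, n = 3) and 47393 ± 1515 in siC (SD, n = 2), had a log2 fold change of 0.53 ± 0.08 (SE), a ratio of 1.44, and a limma adjusted p of 0.000833. miR-222-5p, at 321 ± 69.1 in siIGF2BP3 and 138 ± 36.4 in siC, had a log2 fold change of 1.22 ± 0.21 (SE), a ratio of 2.32, and an adjusted p of 0.00136. For these arms, and for both miR-221 arms, all 3 siIGF2BP3 libraries were above both siC libraries. How many of all miRNAs separate the groups in this way was not counted. Of all miRNAs tested, 10.6% were called in this comparison, 1.91% as higher and 8.66% as lower. The miR-221 arms had log2 fold changes of 0.32 (95% interval 0.05 to 0.59, adjusted p = 0.141) and 0.26 (interval -0.13 to 0.64, adjusted p = 0.486) for 3p and 5p. Without siIGF2BP3 replicate 3, which has the most miR-142 reads, the value of miR-221-3p was 0.43 with an adjusted p of 0.0284. The authors' deposited table gives log2 fold changes of 0.53 for miR-222-3p and 1.21 for miR-222-5p, with false discovery rates of 0.00793 and 2.8e-05. Both miR-222 calls were kept in all 11 alternative settings and in each of the 5 fits that left out a library, but this contrast crosses the blocks.

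In siIGF2BP2 against siC, the 3p arms and miR-221-5p did not pass the test and miR-222-5p did so narrowly. Of all miRNAs tested, 9.00% were called here, 1.24% as higher and 7.76% as lower. miR-222-5p averaged 224 ± 9.16 in siIGF2BP2 (SD, n = 3) and 138 ± 36.4 in siC (SD, n = 2), a log2 fold change of 0.72 ± 0.21 (SE, limma adjusted p = 0.0495). The call was lost in 8 of 11 alternative settings, including edgeR (adjusted p = 0.079) and DESeq2 (adjusted p = 0.109) on the recovered reads. It was also lost in 4 of the 5 fits that left out a library, those without siC C2 (0.45) or without siIGF2BP2 replicate 1, 2 or 3 (0.69 to 0.74). The authors' deposited table gives it a false discovery rate of 0.148. The log2 fold changes of the others were 0.16 (95% interval -0.11 to 0.43) for miR-221-3p, -0.21 (interval -0.60 to 0.17) for miR-221-5p and -0.05 (interval -0.23 to 0.13) for miR-222-3p. This contrast crosses the blocks as well and shares its siC libraries with the contrasts of the other knockdowns.

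In siIGF2BP1 against siC, the comparison within the other block, no arm passed the limma test, and the count tests called both miR-221 arms lower. miR-221-5p averaged 904 ± 274 in siIGF2BP1 and 1436 ± 78.7 in siC (SD, n = 2 each), and its log2 fold change was -0.70 ± 0.19 (SE, limma adjusted p = 0.0784). miR-221-3p, at 29984 ± 865 in siIGF2BP1 and 36708 ± 1594 in siC, had -0.29 ± 0.13 (SE, adjusted p = 0.364). For both arms the siIGF2BP1 libraries lay below both siC libraries, a separation that was not counted over all miRNAs. With edgeR on the recovered reads the log2 fold changes of miR-221-5p and miR-221-3p were -0.92 (adjusted p = 0.015) and -0.55 (adjusted p = 0.0266). DESeq2 gave -0.90 (adjusted p = 0.000757) and -0.52 (adjusted p = 0.0131), so that each of these tools called 2 of the 4 arms lower. Of all miRNAs given an adjusted p, edgeR called 7.46% of 335 and DESeq2 7.62% of 315 as lower. The limma value of miR-221-5p was -0.39 (adjusted p = 0.484) without siIGF2BP1 replicate 2 and -1.01 (adjusted p = 0.0509) without siIGF2BP1 replicate 1. On the authors' scaling the median log2 fold change of all 889 miRNAs tested was 0.10, and with TMM scaling it was 0. In the count tests the median was -0.13 over 335 miRNAs with edgeR and 0 over 1196 with DESeq2. Of all miRNAs, limma called 2.47%, of which 2.14% of all were higher and 0.337% of all were lower.

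The arms of miR-222 passed neither limma nor the count tests in siIGF2BP1. miR-222-3p, at 48416 ± 734 in siIGF2BP1 and 47393 ± 1515 in siC (SD, n = 2 each), had a log2 fold change of 0.03 with a 95% interval of -0.17 to 0.23 (limma adjusted p = 0.968). This value turned to between -0.04 and -0.23 under the other scalings and count tests, in none of which it passed the threshold. miR-222-5p, at 225 ± 33.4 in siIGF2BP1 and 138 ± 36.4 in siC, had 0.72 (interval 0.23 to 1.22, adjusted p = 0.123). None of the 11 alternative settings called it, and without siC C2 it was 0.45. The authors' deposited table gives false discovery rates of 0.244 for miR-222-5p, 0.333 for miR-221-5p and 1 for both 3p arms.

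**Figure D2:**
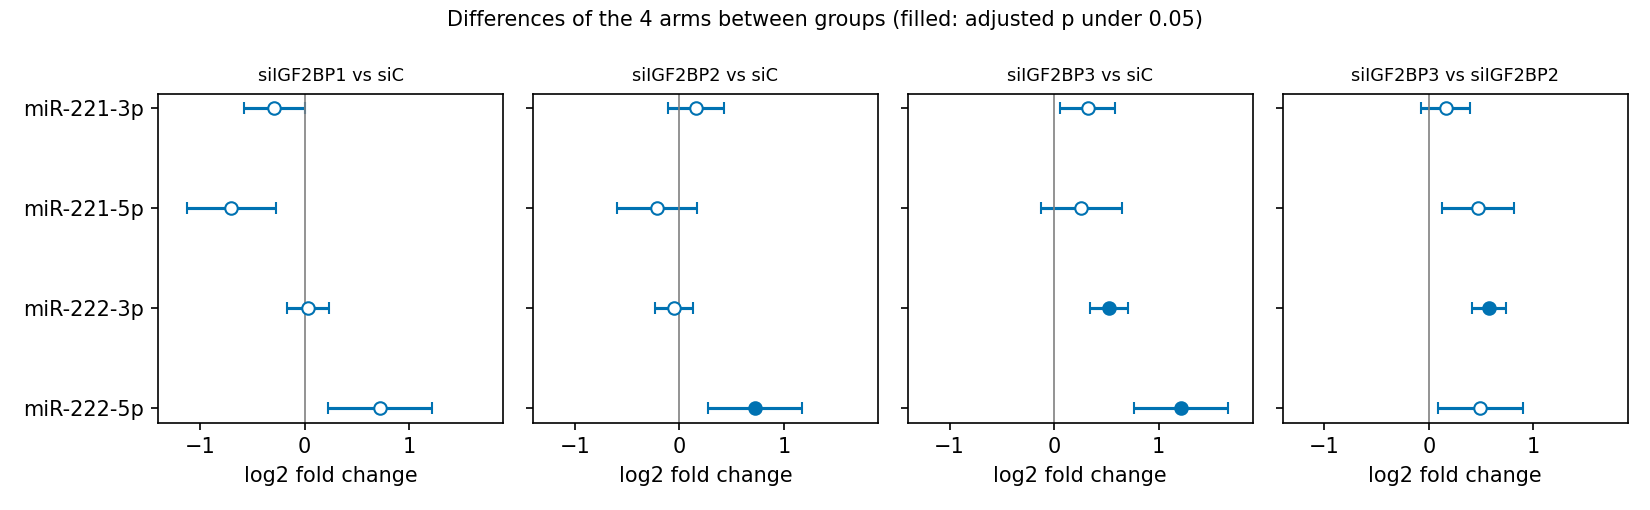
log2 fold change (x axis) of each arm (rows) in 4 comparisons (panels), with 95% intervals from the limma fit; filled points have an adjusted p under 0.05. miR-222-3p is at 0.53 and 0.58 in the panels of siIGF2BP3 against siC and against siIGF2BP2 and at 0.03 and -0.05 in those of siIGF2BP1 and siIGF2BP2 against siC.

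**Figure D3:**
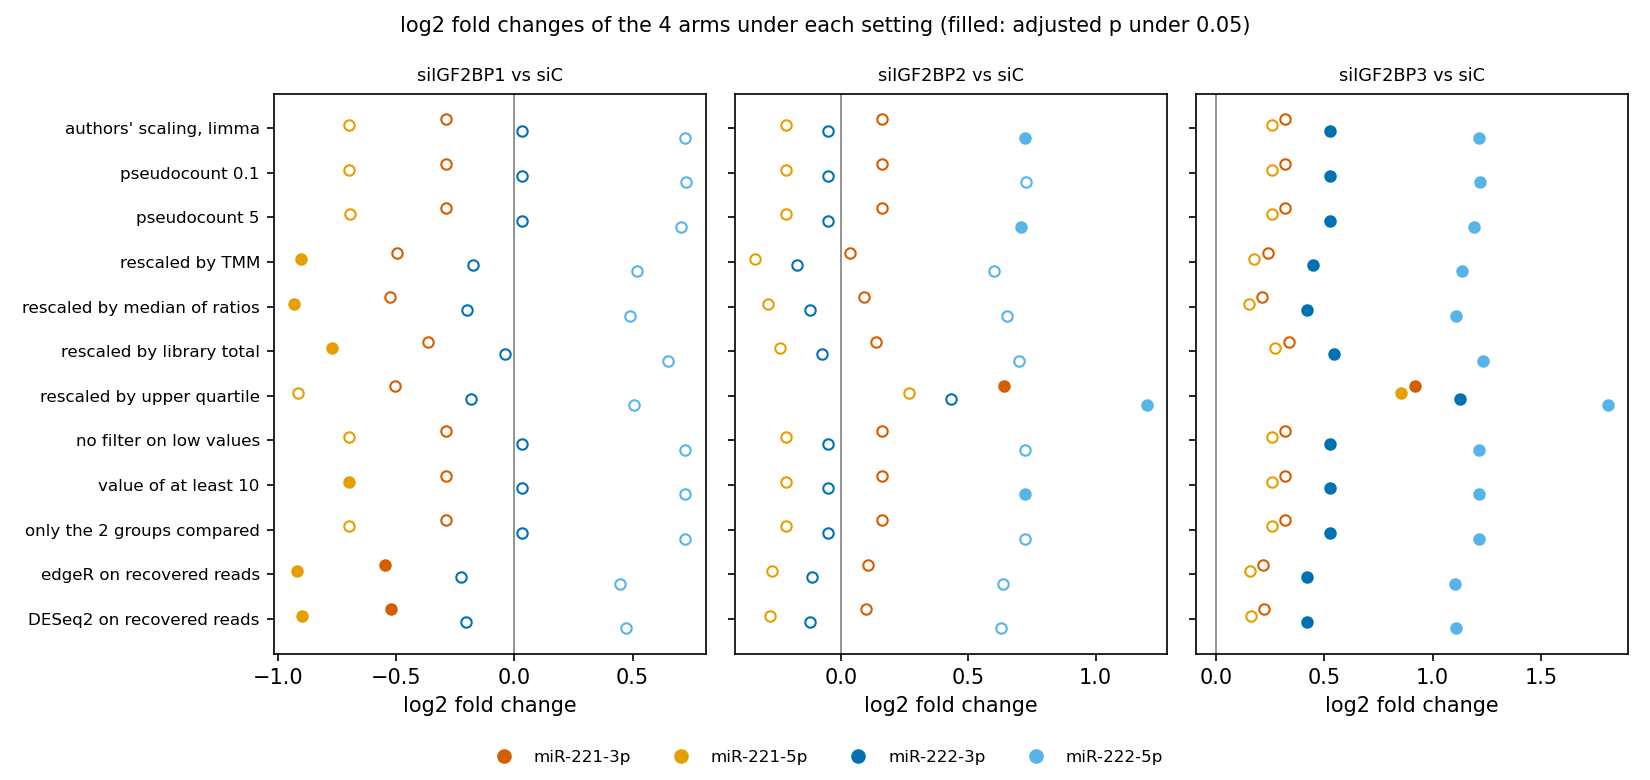
log2 fold change (x axis) of the 4 arms (colours) for each knockdown against siC (panels, each with its own x range) on the authors' scaling and under 11 other settings (rows); filled points have an adjusted p under 0.05. In siIGF2BP3 the miR-222 arms are filled in every row, and with siIGF2BP1 the arms of miR-221 are both filled in the 2 rows of count tests, with miR-221-5p filled in 4 more rows.

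Set against the other knockdowns across the blocks, siIGF2BP1 had the lowest miR-221 levels. Against siIGF2BP3, miR-221-3p had a log2 fold change of -0.61 (limma adjusted p = 0.00339), miR-221-5p of -0.96 (adjusted p = 0.00188) and miR-222-3p of -0.50 (adjusted p = 0.000978), while miR-222-5p had -0.49 (adjusted p = 0.152). Of all miRNAs, limma called 14.8% in this contrast, 12.3% as higher and 2.59% as lower. edgeR and DESeq2 on the recovered reads each called all 4 arms lower, with miR-222-5p at -0.65 (edgeR, adjusted p = 0.0306) and -0.64 (DESeq2, adjusted p = 0.0351). These tools called 14.9% of 335 and 9.20% of 500 miRNAs as lower. With upper quartile scaling miR-222-5p also passed, at -1.30 (limma adjusted p = 0.000711). Without siIGF2BP1 replicate 1 or replicate 2 the adjusted p of miR-221-3p was 0.0695 or 0.0509, and without replicate 2 that of miR-221-5p was 0.0568. Against siIGF2BP2, limma called 1 arm, miR-221-3p at -0.45 (adjusted p = 0.0282), where 13.5% of all miRNAs were called, 11.8% as higher and 1.69% as lower. That call was lost in 4 of the 5 fits that left out a library, those without siIGF2BP1 replicate 1 or 2 or siIGF2BP2 replicate 1 or 3, at values of -0.36 to -0.48. edgeR and DESeq2 each called both miR-221 arms lower, where they called 8.06% of 335 and 3.50% of 686 miRNAs as lower. miR-221-3p was at -0.66 (edgeR, adjusted p = 0.00307) and -0.62 (DESeq2, adjusted p = 0.000318). miR-221-5p was at -0.65 (edgeR, adjusted p = 0.0274) and -0.62 (DESeq2, adjusted p = 0.02). With limma miR-221-5p had -0.49 (adjusted p = 0.103), and it passed with median of ratios scaling at -0.65 (adjusted p = 0.0307) and with upper quartile scaling at -1.18 (adjusted p = 0.00254). Its limma value was -0.80 (adjusted p = 0.024) without siIGF2BP1 replicate 1 and -0.17 (adjusted p = 0.727) without siIGF2BP1 replicate 2.

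The balance between the hairpins was read from the ratio of their 3p arms, which includes any difference in how well each sequence is cloned. miR-222-3p over miR-221-3p was 1.62 ± 0.0711 in siIGF2BP1 (SD, n = 2), 1.12 ± 0.160 in siIGF2BP2 (SD, n = 3), 1.49 ± 0.0844 in siIGF2BP3 (SD, n = 3) and 1.29 ± 0.0974 in siC (SD, n = 2). The siIGF2BP1 libraries (1.57 and 1.67) did not overlap siC (1.22 and 1.36), and the siIGF2BP3 libraries (1.44 to 1.59) overlapped neither siIGF2BP2 (0.954 to 1.27) nor siC. The two-sided exact permutation p-values of the log2 ratio were 0.333 for siIGF2BP1, 0.4 for siIGF2BP2 and 0.2 for siIGF2BP3 against siC, and 0.1 for siIGF2BP3 against siIGF2BP2. For the 5p arms, miR-222-5p over miR-221-5p was 0.256 ± 0.0404 in siIGF2BP1, 0.182 ± 0.0210 in siIGF2BP2, 0.184 ± 0.0137 in siIGF2BP3 and 0.0955 ± 0.0201 in siC. Every knockdown library, at 0.158 or more, was above both siC libraries, at 0.0812 and 0.110. The contrasts share these siC libraries, which held 68 and 123 reads of miR-222-5p, and this 5p ratio was chosen after seeing the data. None of the separations of the 3p or 5p ratio was counted over other pairs of miRNAs. The exact permutation p-values were 0.333, 0.2 and 0.2 for siIGF2BP1, siIGF2BP2 and siIGF2BP3 against siC, the smallest possible, and 0.8 between siIGF2BP3 and siIGF2BP2.

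The balance between arms was read within each hairpin. miR-222-5p made up 0.506% and 0.420% of the reads of both miR-222 arms in siIGF2BP1, 0.470%, 0.471% and 0.525% in siIGF2BP2, 0.416%, 0.371% and 0.633% in siIGF2BP3, and 0.231% and 0.352% in siC. All knockdown libraries exceeded both siC libraries, by little in siIGF2BP3 replicate 2. This separation was not counted over the other hairpins. Taken as the log2 difference between the 3p and the 5p arm, the balance of miR-222 relative to siC was -0.69 in siIGF2BP1, -0.77 in siIGF2BP2 and -0.69 in siIGF2BP3. None of these passed the limma test over 225 arm pairs (adjusted p = 0.577, 0.166 and 0.222). Their unadjusted limma p-values were 0.0381, 0.0155 and 0.0266, and 19, 31 and 33 of the 225 arm pairs had one under 0.05. All 3 balance values share the siC libraries. They were -0.39, -0.47 and -0.38 without siC C2, and -0.99, -1.08 and -0.99 without siC C3. That of siIGF2BP3 was -0.46 without its replicate 3. Among all arm pairs, 0% were called for siIGF2BP1, 5.33% for siIGF2BP2 and 5.33% for siIGF2BP3 against siC, with 4.44% called in the lower direction for siIGF2BP2 and 4.44% for siIGF2BP3.

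miR-221-5p made up a larger part of its hairpin's reads, at 2.94% ± 0.942 in siIGF2BP1 (SD, n = 2), 2.95% ± 0.412 in siIGF2BP2 (SD, n = 3), 3.69% ± 0.988 in siIGF2BP3 (SD, n = 3) and 3.76% ± 0.0412 in siC (SD, n = 2). Within siIGF2BP3, replicate 3 stood at 4.82% and the other libraries at 3.26% and 3.00%. The log2 difference between its arms was 0.41 in siIGF2BP1, 0.37 in siIGF2BP2 and 0.06 in siIGF2BP3 above that in siC, with adjusted p-values of 0.818, 0.563 and 0.958. The value of siIGF2BP1 was 0.066 without its replicate 2 and 0.75 without its replicate 1. Between siIGF2BP3 and siIGF2BP2 the difference in arm balance was -0.31 for miR-221 (adjusted p = 0.782) and 0.09 for miR-222 (adjusted p = 1), where 0.444% of arm pairs were called.

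**Figure D4:**
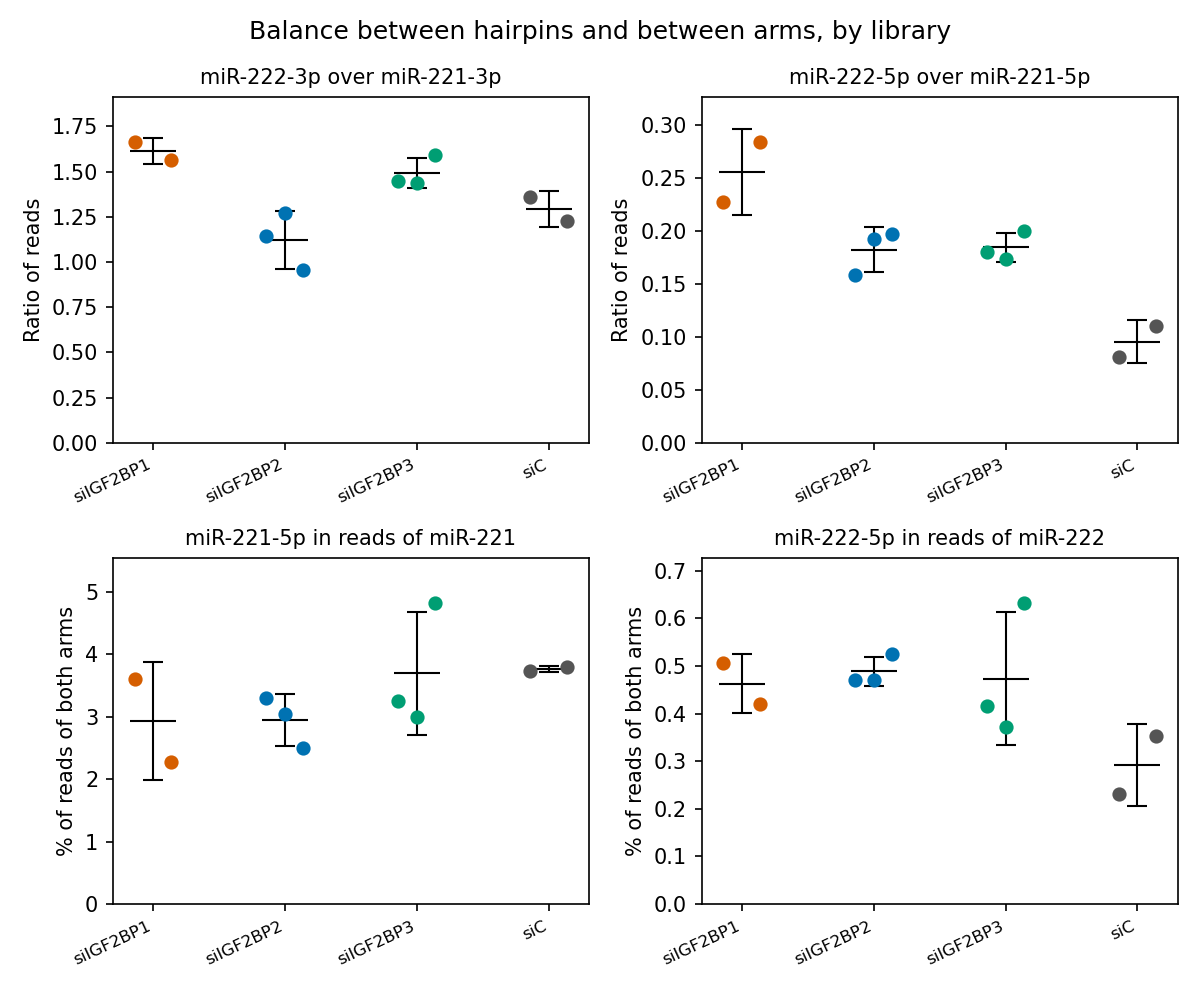
Ratio of reads between the hairpins (upper panels, y axis) and share of the 5p arm in the reads of its hairpin (lower panels, y axis in %) in each library (points, by group on the x axis), with group mean and SD as black bars. The siC libraries have the lowest miR-222-5p over miR-221-5p ratios, 0.0812 and 0.110, and the lowest miR-222-5p shares, 0.231% and 0.352%. How many other hairpins separate the libraries in this way was not counted.

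Other miRNAs known to repress the CDKN1 inhibitors (CDKN1A, which encodes p21, CDKN1B and CDKN1C) were taken as a list of 14, all of them tested. Most of the list did not pass the test in any comparison against siC: 0 rose and 1 fell in siIGF2BP1, 0 rose and 1 fell in siIGF2BP2, and 0 rose and 2 fell in siIGF2BP3. Over all 889 miRNAs tested, 0.337%, 7.76% and 8.66% were called lower in these comparisons, so that the counts of 1 and 2 of 14 in siIGF2BP2 and siIGF2BP3 are near the share over all miRNAs. miR-148a-3p, which represses p27, fell in all 3 contrasts, which share the siC libraries. It averaged 97.2 in siIGF2BP1, 23.5 in siIGF2BP2, 24.2 in siIGF2BP3 and 395 in siC. Its log2 fold changes were -2.12 (limma adjusted p = 0.0263) in siIGF2BP1, -4.01 (adjusted p = 2.41e-05) in siIGF2BP2 and -4.09 (adjusted p = 1.74e-05) in siIGF2BP3, of which those of siIGF2BP2 and siIGF2BP3 cross the blocks. miR-181a-5p fell in siIGF2BP3, at 9311 against 16206 in siC, by 0.80 on the log2 scale (adjusted p = 0.000596). Between siIGF2BP3 and siIGF2BP2, where 1.46% of all miRNAs were called higher and 1.69% lower, miR-25-3p rose by 0.56 (adjusted p = 0.0172), miR-181a-5p fell by 1.05 (adjusted p = 0.000107), and miR-93-5p, at 0.44 (adjusted p = 0.0514), passed in edgeR (adjusted p = 0.0432) and DESeq2 (adjusted p = 0.0106). The list's median log2 fold changes were 0.03, 0.03 and 0.15 for siIGF2BP1, siIGF2BP2 and siIGF2BP3 against siC, with 0.10, -0.03 and 0 over all miRNAs tested. For siIGF2BP3 against siIGF2BP2 they were 0.04 for the list and 0 over all.

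The other miRNAs of the short arm of the X chromosome were represented by the group in the CLCN5 gene, 14 mature arms of which 11 were tested. limma called 0 of them for any knockdown against siC or for siIGF2BP3 against siIGF2BP2. Of all miRNAs tested, limma called 2.47% for siIGF2BP1, 9.00% for siIGF2BP2 and 10.6% for siIGF2BP3 against siC, and 3.15% for siIGF2BP3 against siIGF2BP2. edgeR and DESeq2 each gave an adjusted p to 6 of the arms in siIGF2BP1 against siC and called 1 lower, miR-500a-3p. Over all miRNAs these tools called 7.46% of 335 and 7.62% of 315 as lower. miR-500a-3p averaged 100.1 in siIGF2BP1 and 159 in siC. Its log2 fold changes were -0.92 (edgeR, adjusted p = 0.0189) and -0.90 (DESeq2, adjusted p = 0.013). The most abundant of the group, miR-500a-3p, miR-532-5p and miR-660-5p, had limma log2 fold changes in siIGF2BP3 against siC of -0.02, 0.33 and -0.29. The medians of the 11 arms against siC were -0.67 in siIGF2BP1, -0.14 in siIGF2BP2 and -0.59 in siIGF2BP3, beside 0.10, -0.03 and 0 over all miRNAs tested. Of the 11, miR-502-5p, miR-188-5p, miR-500a-5p, miR-501-5p and miR-532-3p averaged only 0.723 to 2.55 over all libraries. The siIGF2BP3 median was the value of miR-532-3p, near the floor. In siIGF2BP1 against siIGF2BP3, across the blocks, limma called miR-532-5p lower at -0.81 (adjusted p = 0.0166), where 2.59% of all miRNAs were called lower. edgeR and DESeq2 called it lower too, at -0.94 and -0.92, and miR-500a-3p at -0.82 and -0.81. These tools called 14.9% of 335 and 9.20% of 500 miRNAs as lower. For siIGF2BP1 against siIGF2BP2, also across blocks, they called miR-500a-3p at -0.79 and -0.76, beside 8.06% of 335 and 3.50% of 686 miRNAs. limma did not call miR-500a-3p in these contrasts (adjusted p = 0.052 and 0.0838).

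Likeness of pattern was measured as Pearson's r of log2 values over the 10 libraries, among 145 tested miRNAs with a mean of at least 100, as a description in which the blocks and the depth of each library are shared. miR-222-3p was most like miR-31-5p (r = 0.96), miR-93-5p (0.88), miR-3615 (0.83), miR-155-5p (0.82) and miR-16-5p (0.78). Within the 6 siIGF2BP2 and siIGF2BP3 libraries the corresponding values were 0.97, 0.91, 0.91, 0.98 and 0.89. miR-221-3p was most like miR-454-3p (r = 0.90), miR-148b-3p (0.88), miR-29a-3p (0.84), miR-125b-1-3p (0.84) and miR-17-5p (0.81), with 0.89, 0.94, 0.41, 0.45 and 0.88 within those 6 libraries. The 2 sets of 5 had no miRNA in common, and how often sets of this size would share none was not computed. The 3p arms of the cluster correlated with each other at 0.57 over the 10 libraries and 0.56 over the 6. The miRNAs named above were picked as the highest of 145, and where 0.57 falls among all of these was not computed. The 5p arms stood at 0.35 over the 10 and 0.92 over the 6.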

How the data were processed

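Small RNA libraries (Illumina TruSeq, total RNA extracted with TRIZOL, per the labels' protocols) were processed by the authors with cutadapt 1.6, Bowtie2 2.2.4, featureCounts 1.4.6, edgeR 3.12 and hg19, per the submitters' processing notes. Their settings and the scaling method are not stated in these sources. The deposited values are a normalised signal, in which 100% of values in each library were whole multiples of 1 read within 0.01 reads. The authors' log2 fold changes run knockdown over siC, and their deposited p-values and false discovery rates are quoted where that table is named. limma on log2 values had been planned as the test, with edgeR on counts only if the values proved to be raw counts. Rows of further genomic copies (218 of 2794) were summed. Neither control column matches a single sample title, so both go by their column numbers, siC C2 and siC C3. There were 0 unused columns of other samples.

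The main test was limma 3.58.1 (R 4.3.3) with an intensity trend on log2(value + 1). It was fitted once to the 4 groups over the 889 miRNAs that reached 1 in 2 or more libraries, and p-values were adjusted after Benjamini and Hochberg with a threshold of 0.05. The added 1 shrinks fold changes of low miRNAs. Alternatives were pseudocounts of 0.1 and 5, 4 rescalings, other filters, only the groups compared, edgeR 4.0.16 (335 miRNAs) and DESeq2 1.42.0 on recovered reads, a replicate block, and fits without each library in turn. The 5p hairpin ratio and the unblocked fit to knockdown libraries were chosen after seeing the data. Exact permutation tests used scipy 1.17.1. The fits were tested on simulated data with 200 changed miRNAs.

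The members, lists and tests were chosen with earlier results of these data known. Named miRNAs were the 4 members, the 5 most like each 3p arm, and list members past the threshold or otherwise the 3 most abundant. Sequences come from RefSeq by miRNA name, and no coordinates were carried between builds.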

Additional observations from a re-analysis of the deposited data

How the results depend on the processing

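Over 44 results and 534 alternatives, 468 kept direction and, where a test could pass it, side of the threshold. The alternatives of the 12 exact tests, each with a library left out, count by direction alone. Some of them had no p-value, and the rest had too few libraries to pass the threshold. In siIGF2BP1 against siC, miR-221-5p passed with TMM (-0.90), median of ratios (-0.93), library total (-0.77), a value of at least 10 (-0.70), edgeR (-0.92) and DESeq2 (-0.90), and miR-221-3p with edgeR (-0.55) and DESeq2 (-0.52). miR-222-3p turned to -0.17 with TMM, -0.20 with median of ratios, -0.042 with library total, -0.18 with upper quartile, -0.23 with edgeR, -0.20 with DESeq2, and to between -0.0015 and 0.064 with a library left out. In siIGF2BP2 against siC, miR-222-5p lost its call at 0.73 (pseudocount 0.1), 0.60 (TMM), 0.65 (median of ratios), 0.70 (library total), 0.72 (no filter, and only 2 groups), 0.64 (edgeR) and 0.63 (DESeq2), and ranged from 0.45 to 0.99 with a library left out. Upper quartile moved the median of all miRNAs to 0.30 in siIGF2BP2 and 0.43 in siIGF2BP3 against siC. With it miR-221-3p passed at 0.64, and miR-221-5p and miR-222-3p turned to 0.27 and 0.43, in siIGF2BP2. In siIGF2BP3 miR-221-3p and miR-221-5p passed at 0.92 and 0.86. With a library left out, miR-221-3p in siIGF2BP3 against siC ranged from 0.26 to 0.43. With only 2 groups miR-221-5p passed at 0.47 in siIGF2BP3 against siIGF2BP2. In siIGF2BP1 against siIGF2BP2, miR-222-3p turned to -0.081, -0.62, -0.11 and -0.081 with median of ratios, upper quartile, edgeR and DESeq2, and miR-222-5p ranged from -0.15 to 0.15 with a library left out. With a library left out, arm balance ranged from -0.079 to 0.28 for miR-221 (siIGF2BP3 against siC) and from -0.0700 to 0.32 for miR-222 (siIGF2BP3 against siIGF2BP2), the 5p hairpin difference from -0.079 to 0.078 (siIGF2BP3 against siIGF2BP2), and the share of the 4 arms from -0.16 to 0.43 percentage points (siIGF2BP2 against siC). The cause of these changes was not tested.

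Replicate numbers did not pair the siIGF2BP3 and siIGF2BP2 libraries (r of same-numbered libraries -0.12, -0.16 and -0.04). In the fit with a replicate block to the knockdown libraries alone, 10 of 814 miRNAs were called between them, against 21 without the block, and miR-222-3p stayed at 0.58 (limma adjusted p = 0.0257). With the block miR-222-5p turned to 0.10, and miR-221-3p had -0.46 (adjusted p = 0.15), in siIGF2BP1 against siIGF2BP2. No library correlated best with its own number. Counting error is widest for miR-222-5p, at 68 to 335 reads per library.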
